A study of Mus musculus with 6 samples.

Results

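The lysozyme, CD68 and cathepsin genes are the 10 genes Lyz1, Lyz2, Cd68, Ctsa, Ctsb, Ctsd, Ctsh, Ctsl, Ctss and Ctsz, found by symbol among the 23337 genes of the count table. All 10 passed the filter on low counts. They were measured in sorted leukaemia initiating cells (LICs), the cells of a leukaemia that can start it again, by mouse RNA-seq, with 3 libraries from adult leukaemia (replicates 1, 2 and 4) and 3 from neonatal leukaemia (replicates 4, 7 and 8). The labels give the age group and call the source haematopoietic stem and progenitor cells. They give no driver of the leukaemia, genotype, strain, sex, sorting markers or age in days, and they do not say that replicates came from separate mice, so each p-value below is set against the variation among these 6 libraries alone, and that variation may be technical.

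Lysosomes are acidic compartments that break down proteins, lipids and sugars, and phagocytes of the monocyte, macrophage and neutrophil lines are rich in their contents. Lysozymes cut the cell wall of bacteria and are stored in granules or secreted. CD68 is a heavily glycosylated membrane protein of late endosomes and lysosomes, widely used to mark macrophages. Cathepsins are the proteases of the lysosome: cathepsin D is an aspartic protease, cathepsin A a serine carboxypeptidase, and cathepsins B, H, L, S and Z are cysteine proteases. Lyz2 is the lysozyme of myeloid cells in the mouse, and Lyz1 that of the Paneth cells of the gut.

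The adult libraries held 60113466 to 65183188 counts, neonatal replicates 7 and 8 held 64712241 and 66132051, and neonatal replicate 4 held 3932833. Levels are given in CPM, read counts scaled to a common library total after TMM normalization. In neonatal replicate 4, 1 count was worth 0.299 CPM, and in the others 0.0142 to 0.0168 CPM. That library often stood apart from neonatal replicates 7 and 8, so the fits of the 10 genes are given with and without it. Sex went with age group: Ddx3y, a Y-linked gene, stood at 98.8 to 154 CPM in adult and at 0 to 0.0148 CPM in neonatal libraries, so sex and age cannot be told apart. Kit, a receptor gene of stem and progenitor cells, was detected in every library, at 50.1 to 85.8 CPM in adult and 23.6 to 264 CPM in neonatal LICs. The B and T cell genes Pax5, Ms4a1, Cd3e, Cd3g and Cd4 had 0 counts in every library. Of the 11 B and T cell markers in the count table, 4 passed the filter on low counts. The 11 summed to 70.1, 61.8 and 30.2 CPM in adult replicates 1, 2 and 4, against 148, 92.1 and 73.6 CPM in neonatal replicates 4, 7 and 8.

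Lyz1 and Lyz2 lie side by side on chromosome 10 (117287795 to 117292868 and 117277541 to 117282272, mm10, minus strand) and are near-identical copies, so their sequences are shown first. Over 444 coding bases of the GENCODE transcripts they differ at 22, and the longest identical run is 118 bases. The first 150 coding bases follow, read 5′ to 3′ on the gene strand, with the 14 bases that differ between the copies in capitals.
Lyz1: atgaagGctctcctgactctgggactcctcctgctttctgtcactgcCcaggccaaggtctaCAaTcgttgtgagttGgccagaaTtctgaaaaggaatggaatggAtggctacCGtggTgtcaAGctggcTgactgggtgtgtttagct
Lyz2: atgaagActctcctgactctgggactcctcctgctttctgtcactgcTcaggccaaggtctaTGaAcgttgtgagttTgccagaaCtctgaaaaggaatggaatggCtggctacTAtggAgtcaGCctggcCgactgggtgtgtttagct
Of the 1189 windows of 75 bases, the read length of these libraries, along the Lyz1 transcript, 74 (6.22%) occur unchanged in Lyz2 and 531 (44.7%) come within 2 mismatches of it. The likeness extends upstream. The 100 bases before the RefSeq start sites (GRCm38.p6, minus strand, chr10:117292869-117292968 and chr10:117282273-117282372) differ at 8, again in capitals.
Lyz1: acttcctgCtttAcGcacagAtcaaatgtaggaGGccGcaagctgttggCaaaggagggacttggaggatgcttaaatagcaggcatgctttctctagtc
Lyz2: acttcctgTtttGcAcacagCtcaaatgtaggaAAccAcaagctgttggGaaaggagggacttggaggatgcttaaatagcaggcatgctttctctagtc

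The 10 genes did not move as one group. In bulk RNA, fewer cells of a type and less RNA per cell cannot be told apart. Lyz1 and Lyz2 had higher means in adult LICs, Cd68, Ctsa, Ctsz and Ctsh had lower means in adult LICs, and the means of Ctsb, Ctsd, Ctsl and Ctss lay closer together. On 6 libraries 0 of 10 passed edgeR's quasi-likelihood test at an adjusted p under 0.05, where 0.0527% of 13272 genes passed in either direction (0.0377% higher and 0.0151% lower in adult). At an unadjusted p under 0.05 there were 3 lower in adult LICs (Cd68, Ctsa and Ctsz, background 4.93%) and 0 higher (background 7.01%, either direction 11.9%). Without neonatal replicate 4, Cd68 and Ctsa fell in adult LICs, 2 of 10 against 3.72% of 13856 genes lower in adult, and 0 rose (background 2.25%, either direction 5.98%). DESeq2 called those 2 lower and 0 higher on 6 libraries, against a background of 2.31% lower, 3.13% higher and 5.44% in either direction. Leaving out neonatal replicate 4, DESeq2 called 4 lower (Cd68, Ctsa, Ctsd and Ctsz) and 2 higher (Lyz1 and Lyz2), where 12.6% of genes were lower, 11.5% higher and 24.1% either. The median log2 fold change of the 10 genes, adult minus neonatal, was -0.38, and that of all genes tested was -0.05. The values of Cd68, Ctsa and Ctsz were lower in adult LICs without overlap between the groups (3 of 10, background 7.67% lower, 12.0% higher and 19.6% either).

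**Figure D1:**
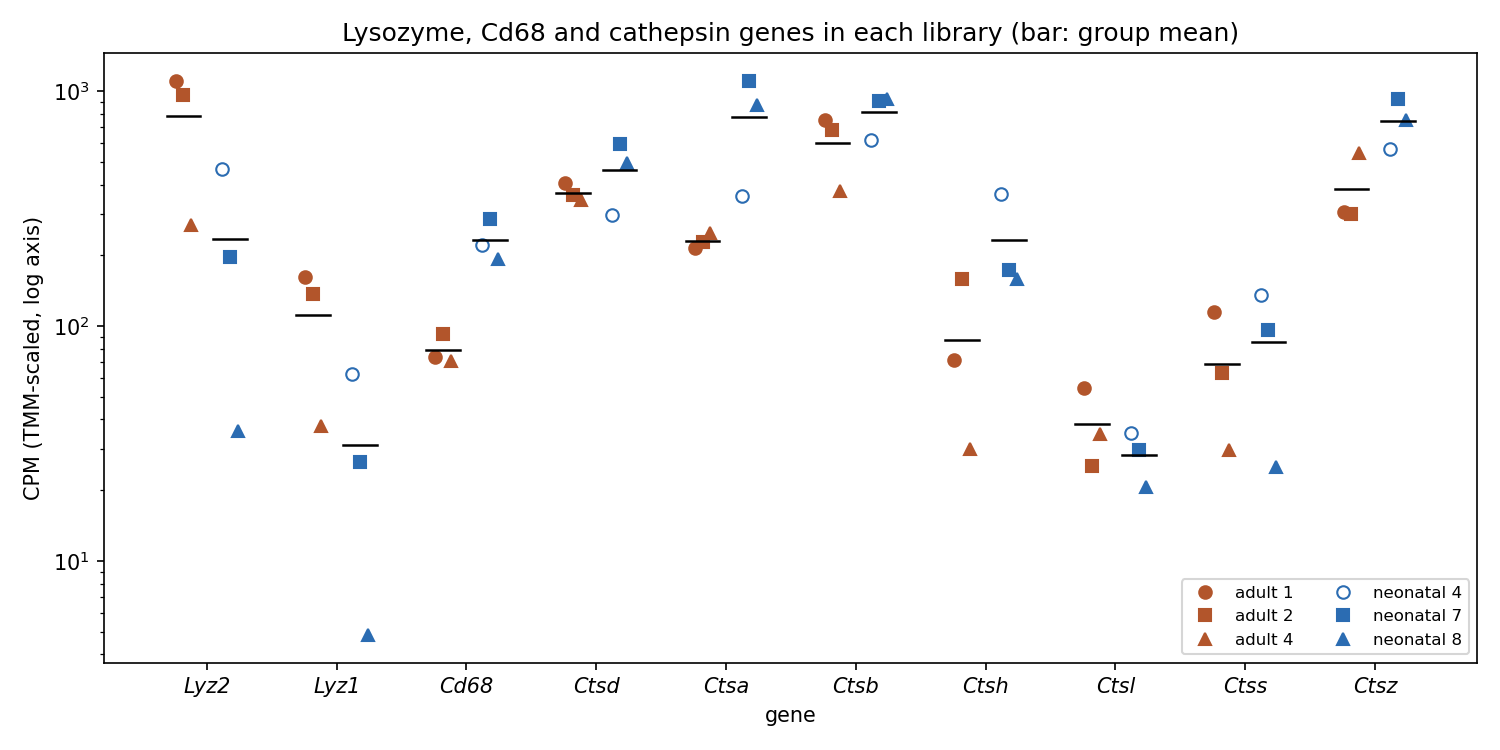
TMM-scaled CPM (log axis) of each gene in 3 adult (left, brown) and 3 neonatal (right, blue) libraries, with the group mean as a bar and neonatal replicate 4 as an open circle. Cd68, Ctsa and Ctsz do not overlap between the groups, and Lyz1 and Lyz2 spread over the widest range, from 4.85 to 161 CPM and from 35.8 to 1106 CPM.

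Lyz2 was at 1106, 964 and 269.7 CPM in adult replicates 1, 2 and 4, against 468, 197 and 35.8 CPM in neonatal replicates 4, 7 and 8. Adult replicates 1 and 2 were the highest, and adult replicate 4 lay below neonatal replicate 4, so the groups overlapped. The means were 779.9 ± 448 CPM over the adult libraries and 234 ± 218 CPM over the neonatal libraries (SD, n = 3 per group), which gave a log2 fold change of 1.74 ± 0.88 (SE) with an edgeR adjusted p of 0.499. Without neonatal replicate 4 the groups no longer overlapped and the log2 fold change was 2.73 ± 0.92, with an edgeR adjusted p of 0.115 and a DESeq2 adjusted p of 0.00271 (range over 17 alternatives 0.00271 to 0.841). Of the 10 genes, 2 were higher in adult LICs without overlap in those 5 libraries, both lysozymes, against a background of 25.6%.

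Lyz1 was at 161, 137 and 37.6 CPM in adult replicates 1, 2 and 4, against 62.5, 26.4 and 4.85 CPM in neonatal replicates 4, 7 and 8. These values followed Lyz2 library by library, and the log2 fold change was 1.87 ± 0.89 (SE) with an edgeR adjusted p of 0.469, or 2.83 ± 0.93 without neonatal replicate 4 (edgeR adjusted p = 0.110, DESeq2 0.00238). Lyz1 held 12.7%, 12.4% and 12.2% of the counts of both genes in adult replicates 1, 2 and 4, and 11.8%, 11.8% and 11.9% in neonatal replicates 4, 7 and 8. The exact 95% binomial intervals ran from 11.8% to 12.9% over the adult and from 10.3% to 13.4% over the neonatal libraries, and cover counting error only. The mean share was 12.5 ± 0.236% in adult and 11.8 ± 0.0835% in neonatal LICs (SD, n = 3 each, two-sided exact permutation p = 0.1, the smallest that 3 against 3 libraries allow). The split of reads between the copies depends on how reads that match both were placed, and the part of Lyz2 reads in the Lyz1 value was not tested. With both genes summed, the log2 fold change was 1.75 (edgeR adjusted p = 0.498), and 2.75 without neonatal replicate 4 (edgeR adjusted p = 0.115).

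**Figure D2:**
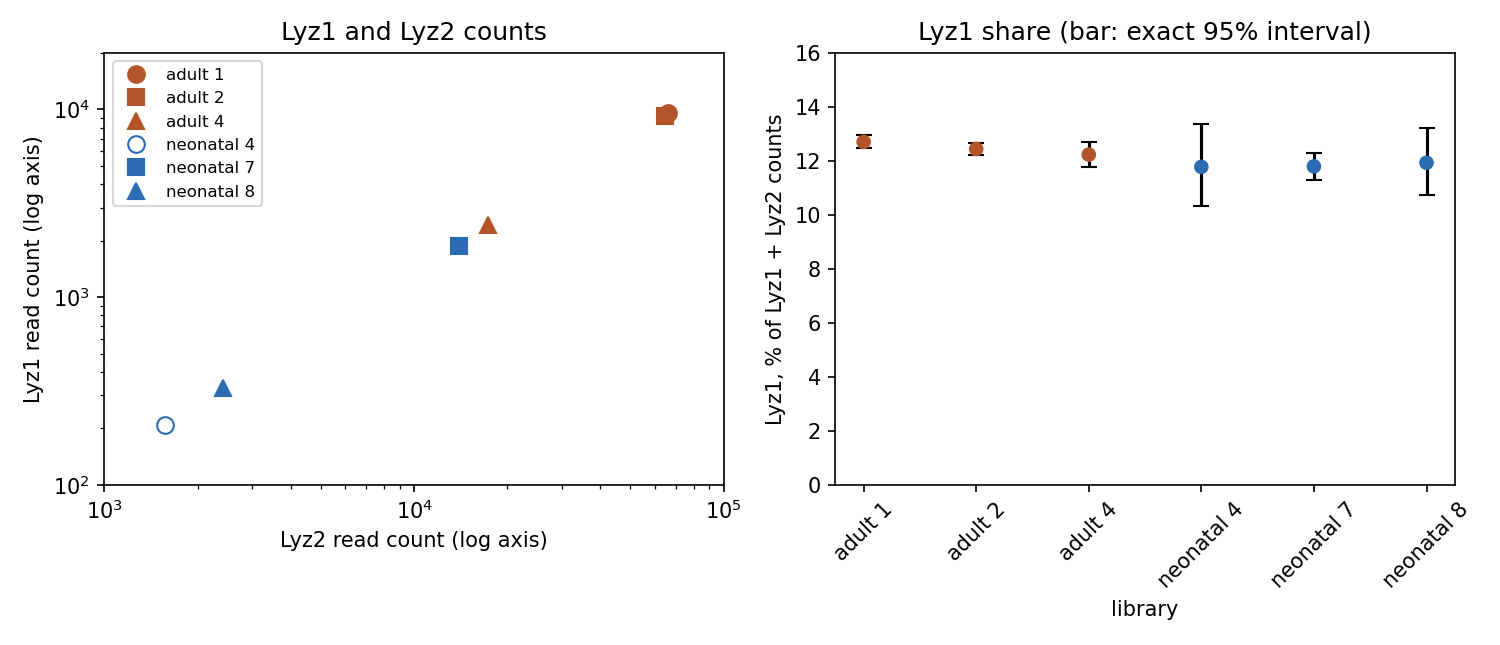
Left, read counts of Lyz1 against Lyz2 in each library (both log axes). Right, Lyz1 as a percentage of the counts of both genes with exact 95% binomial intervals: the share stays between 11.8% and 12.7% while Lyz2 runs from 1565 to 66007 counts.

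Cd68 (chromosome 11, 69664371 to 69666062) was at 74.1, 92.8 and 70.7 CPM in adult replicates 1, 2 and 4, against 222, 284 and 193 CPM in neonatal replicates 4, 7 and 8. Every adult library lay below every neonatal library, the shallow one included. The means were 79.2 ± 11.9 CPM over the adult libraries and 233 ± 46.7 CPM over the neonatal libraries (SD, n = 3 per group), which gave a log2 fold change of -1.56 ± 0.30 (SE) with an edgeR adjusted p of 0.140. With neonatal replicate 4 left out it was -1.60 ± 0.23 (edgeR adjusted p = 0.0360, from 2.85e-07 to 0.405 over 19 alternatives), so the size hardly differed and the call did. Leaving out any other library gave log2 fold changes of -1.68 to -1.39 and no call.

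Ctsa (chromosome 2, 164832873 to 164841032) encodes the carboxypeptidase that also protects the lysosomal β-galactosidase and neuraminidase from breakdown. It was at 215, 227 and 249 CPM in adult replicates 1, 2 and 4, against 357, 1103 and 876 CPM in neonatal replicates 4, 7 and 8. The adult libraries lay within 1.16-fold of each other, below all neonatal libraries. The log2 fold change was -1.76 ± 0.44 on 6 libraries (SE, edgeR adjusted p = 0.173) and -2.11 ± 0.18 without neonatal replicate 4 (edgeR adjusted p = 0.0195, from 1.22e-22 to 0.442 over 19 alternatives). Of the 3674 exon bases of Ctsa, 819 (22.3%) overlap Neurl2 or Pltp, and reads there cannot be told apart without strand. Neurl2 was lower in adult LICs too, at 1.44 to 1.94 CPM, against 3.29 to 8.15 CPM in neonatal LICs. The part of Neurl2 and of Pltp reads in the Ctsa value was not tested.

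Ctsz (chromosome 2, 174427494 to 174438992) encodes a carboxypeptidase of myeloid cells also called cathepsin X. In every library Ctsz was the highest per length of the cathepsin genes among the 10. It was at 306, 299 and 545 CPM in adult replicates 1, 2 and 4, against 565, 926 and 749 CPM in neonatal replicates 4, 7 and 8. The groups did not overlap, but adult replicate 4 came close to neonatal replicate 4. The log2 fold change was -0.96 ± 0.37 on 6 libraries (SE, edgeR adjusted p = 0.362) and -1.14 ± 0.30 without neonatal replicate 4, where edgeR gave an adjusted p of 0.0694 and DESeq2 0.00725.

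Ctsd (chromosome 7, 142375916 to 142387870), the main aspartic protease of the lysosome, was at 405, 359 and 343 CPM in adult replicates 1, 2 and 4, against 295, 595 and 495 CPM in neonatal replicates 4, 7 and 8. Neonatal replicate 4 was the lowest library and replicates 7 and 8 the highest, so the groups overlapped through that 1 library. On 6 libraries the log2 fold change was -0.32 ± 0.34 (SE, edgeR adjusted p = 0.787) and -0.57 ± 0.18 without neonatal replicate 4 (edgeR adjusted p = 0.0930, DESeq2 0.0190). Of 1848 windows of 75 bases along the Ctsd transcript, 644 (34.8%) also occur in the GENCODE gene Gm49369, and the part of such reads in the Ctsd value was not tested. Ctsb (chromosome 14, 63122462 to 63145923), an endopeptidase and dipeptidase, was at 753, 681 and 376 CPM in adult replicates 1, 2 and 4, against 617, 904 and 928 CPM in neonatal replicates 4, 7 and 8. Adult replicate 4 stood lowest, and the groups overlapped (log2 fold change -0.44 ± 0.37 as SE, with an edgeR adjusted p of 0.719, and -0.61 ± 0.30 with 0.226 without neonatal replicate 4). Of its 4743 exon bases, 774 (16.3%) overlap Fdft1, which was at 15.8 to 26.1 CPM in adult and 14.6 to 18.9 CPM in neonatal LICs. Without neonatal replicate 4, 5 of the 10 genes (Cd68, Ctsa, Ctsb, Ctsd and Ctsz) were lower in adult LICs without overlap, against a background of 25.0% lower and 50.6% in either direction.

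Ctsh, Ctss and Ctsl overlapped between the groups with or without neonatal replicate 4. Ctsh (chromosome 9, 90054267 to 90076095), an aminopeptidase, was at 71.6, 159 and 30.0 CPM in adult replicates 1, 2 and 4, against 363, 174 and 159 CPM in neonatal replicates 4, 7 and 8. Adult replicate 2 stood level with neonatal replicate 8, and the log2 fold change was -1.41 ± 0.62 (SE, edgeR adjusted p = 0.430), or -0.95 ± 0.62 without neonatal replicate 4 (edgeR adjusted p = 0.352). Ctss (chromosome 3, 95526786 to 95556403), which trims the invariant chain of MHC class II in antigen-presenting cells, was at 115, 63.0 and 29.7 CPM in adult replicates 1, 2 and 4, against 136, 96.2 and 25.2 CPM in neonatal replicates 4, 7 and 8. Its log2 fold change was -0.30 ± 0.67 (SE, edgeR adjusted p = 0.915) and turned to 0.18 ± 0.71 without neonatal replicate 4 (edgeR adjusted p = 0.892). Ctsl (chromosome 13, 64363214 to 64370306), an endopeptidase, was in every library the lowest per length of the cathepsin genes among the 10. It was at 25.2 to 54.4 CPM in adult and 20.6 to 35.0 CPM in neonatal LICs. Its log2 fold change was 0.43 ± 0.39 (SE), with an edgeR adjusted p of 0.741. In the 5 deep libraries this was 0.59 ± 0.37 (edgeR adjusted p = 0.328).

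**Figure D3:**
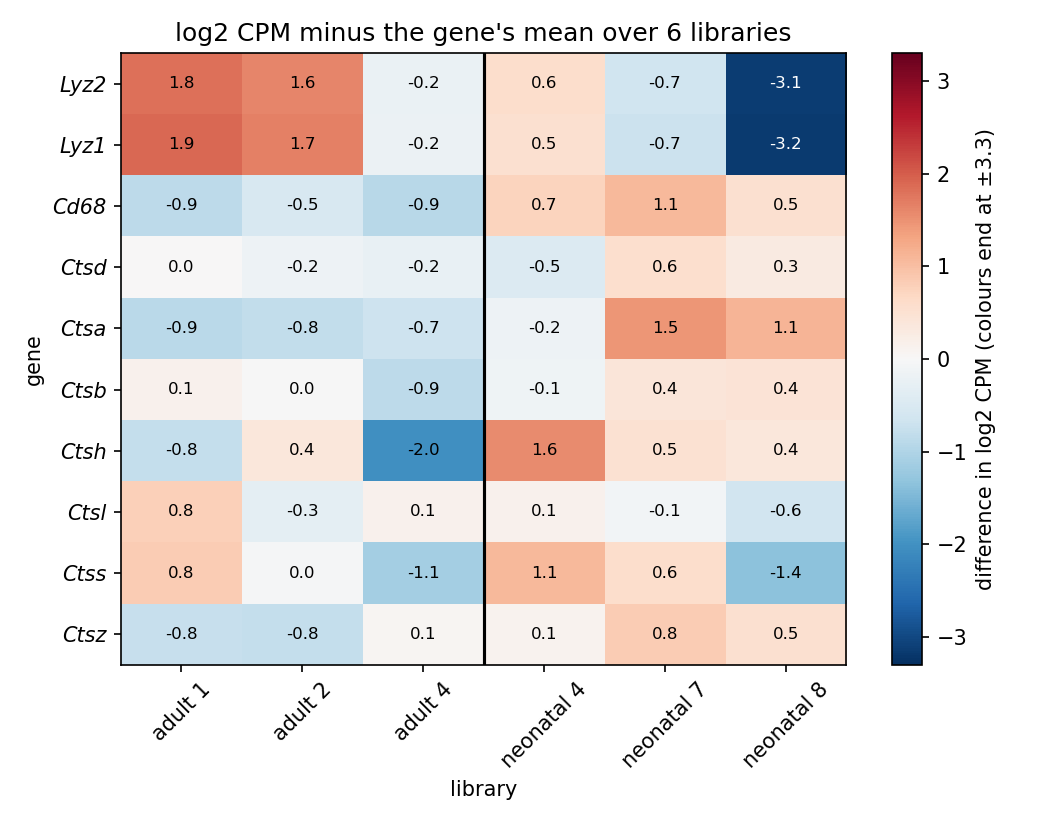
Each cell is a gene's log2 CPM in 1 library minus its mean over the 6 libraries, adult left of the line. The lysozymes are high in adult replicates 1 and 2 and low in neonatal replicate 8, and Cd68 and Ctsa are low in all 3 adult libraries. Ctsh is low in adult replicate 4, and Ctss is low in adult replicate 4 and lowest in neonatal replicate 8.

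**Figure D4:**
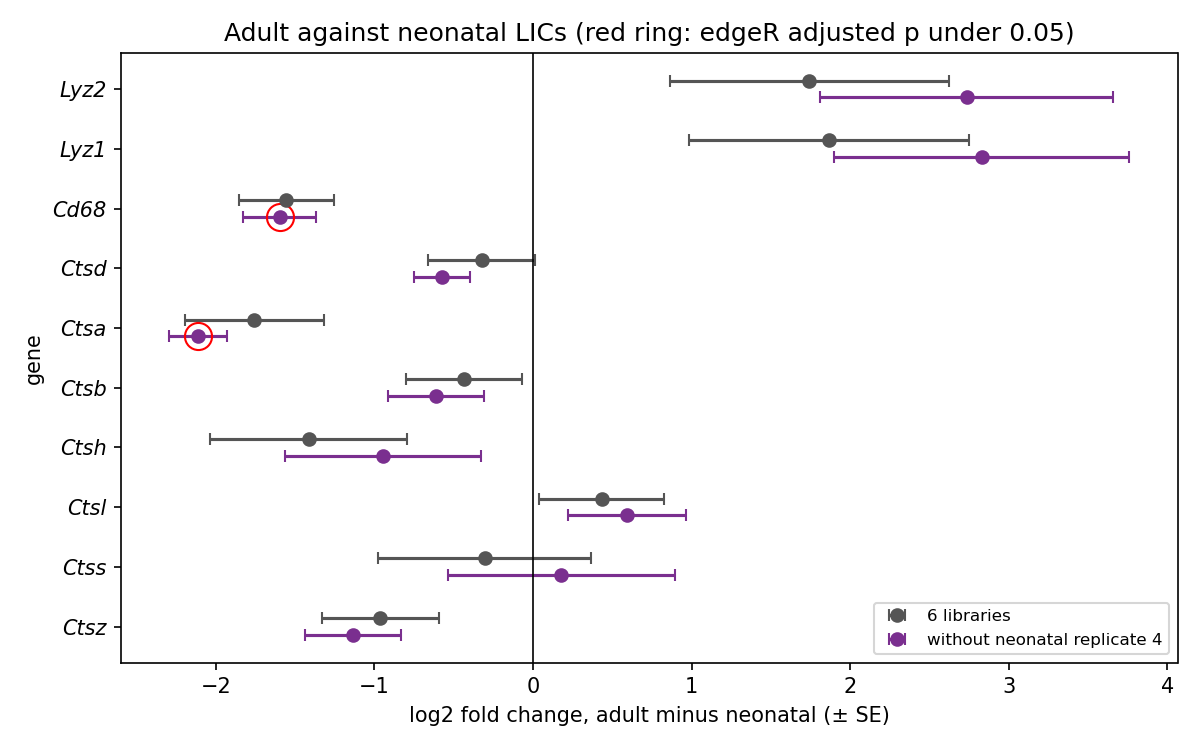
Log2 fold change, adult minus neonatal, with its SE, on 6 libraries (grey) and without neonatal replicate 4 (purple). Red rings mark an edgeR adjusted p under 0.05, which Cd68 (-1.60) and Ctsa (-2.11) reach without that library and none reaches on 6.

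Compared per length, on CPM per kilobase of exon (RPKM), the make-up of the group differed between libraries. Lyz2 was the highest of the 10 in adult replicates 1 and 2 (1046 and 912 RPKM) and in neonatal replicate 4 (443 RPKM). In adult replicate 4 and in neonatal replicates 7 and 8 it was Ctsz, at 391, 665 and 538 RPKM. Lyz2 held 51.1%, 48.7% and 22.6% of the summed RPKM of the 10 genes in adult replicates 1, 2 and 4, and 24.1%, 8.71% and 2.14% in neonatal replicates 4, 7 and 8. Ctsz held 10.7%, 11.5% and 34.7% in the adult libraries and 22.1%, 31.0% and 34.0% in the neonatal ones. The 7 cathepsin genes together reached 1920.0, 1813 and 1608 CPM in adult replicates 1, 2 and 4, against 2368, 3828 and 3253 CPM in neonatal replicates 4, 7 and 8. The 2 lysozymes reached 1267, 1101 and 307 CPM in the adult libraries, against 530.3, 224 and 40.6 CPM in the neonatal ones. The ratio of Lyz2 to Cd68 CPM, chosen after the values were seen, was 14.9, 10.4 and 3.81 in adult replicates 1, 2 and 4, against 2.11, 0.695 and 0.186 in neonatal replicates 4, 7 and 8.

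By the root mean square difference of centred log2 CPM over 6 libraries and 8716 genes compared, the genes nearest to Lyz2 were Lyz1 (0.0451), Clec4a2 (0.503) and Fcgr4 (0.506). Clec4a2 encodes a lectin receptor of myeloid cells and Fcgr4 an activating Fc receptor. Clec4a2 showed 297, 319 and 143 CPM in adult replicates 1, 2 and 4, against 119, 82.6 and 23.6 CPM in neonatal replicates 4, 7 and 8. The nearest genes to Cd68 were Selplg (0.197), the selectin ligand gene PSGL-1, H2-DMa (0.222), which loads peptides onto MHC class II, and Mfsd7b (0.231). Among the 10, Ctsa stood 145th and Ctsz 154th from Cd68, and Lyz2 stood 8587th.

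Genes of other lysosomal parts were counted from lists (the members and lists were chosen with earlier results of these data known). On 6 libraries edgeR called 0 genes of these lists. Among the lysosomal and inhibitor lists DESeq2 called 2 acid hydrolases (Glb1 and Smpd1) and 1 other protease (Scpep1) lower in adult LICs, where 2.31% of all genes were lower, and 4 cystatins and 1 regulator (Mitf) higher, where 3.13% were higher. Acid hydrolases, the enzymes that break down sugars, lipids and glycoproteins, had a negative log2 fold change in 21 of 30 tested genes (median -0.65), as had 7106 of all 13272 genes. At an unadjusted p under 0.05 there were 3 lower (background 4.93%) and 0 higher in edgeR. When neonatal replicate 4 was left out, 9 of 30 fell in adult LICs in edgeR (among them Gaa, Glb1, Galns, Smpd1 and Psap, median -0.76, background 3.72%) and 0 rose (background 2.25%), and DESeq2 called 15 lower (background 12.6%) and 0 higher. Glb1, the β-galactosidase that cathepsin A protects, averaged 26.2 ± 2.44 CPM over the adult libraries and 67.0 ± 19.0 CPM over the neonatal libraries (SD, n = 3 per group), with a log2 fold change of -1.36 on 6 libraries (edgeR adjusted p = 0.167) and -1.59 without neonatal replicate 4 (edgeR adjusted p = 0.0320, from 5.44e-14 to 0.454 over 19 alternatives). Gaa, the acid α-glucosidase, was at 48.2, 43.0 and 83.6 CPM in adult replicates 1, 2 and 4, against 16.7, 280.0 and 234 CPM in neonatal replicates 4, 7 and 8. Psap, the precursor of the saposins that help degrade sphingolipids, was at 208, 142 and 195 CPM in the adult libraries, against 62.5, 631 and 473 CPM in the neonatal ones. In both genes neonatal replicate 4 was the lowest of the 6 libraries and lay on the other side of the adult libraries from replicates 7 and 8.

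The remaining lysosomal lists were mixed. In edgeR without neonatal replicate 4, 2 of 18 membrane protein genes fell in adult LICs (Laptm5 and Abca2), as did 1 of 15 proton pump genes (Atp6v0a1) and 1 of 12 sorting and regulator genes (Tfeb), against a background of 3.72%, and 0 in these lists rose. DESeq2 without that library called 4 membrane protein genes lower and 1 higher, 3 proton pump genes lower and 6 higher, and 4 sorting and regulator genes lower and 1 higher, against backgrounds of 12.6% lower and 11.5% higher. In Laptm5 and Abca2 neonatal replicate 4 was the lowest of the 6 libraries. It had 392 CPM of Laptm5, against 627 to 736 CPM in adult libraries and 1620 and 1712 CPM in neonatal replicates 7 and 8. For Abca2 it had 8.07 CPM, against 28.1 to 42.1 CPM in adult libraries and 110 and 90.1 CPM in neonatal replicates 7 and 8. Tfeb, the transcription factor that switches on lysosomal genes, was at 14.6, 17.3 and 16.9 CPM in adult replicates 1, 2 and 4, against 8.97, 39.5 and 42.1 CPM in neonatal replicates 4, 7 and 8 (log2 fold change -0.91 with an edgeR adjusted p of 0.579 on 6 libraries, and -1.34 with 0.0365 without neonatal replicate 4). Cd63, a tetraspanin of lysosomes and granules, stood the other way, at 1098 ± 156 CPM over the adult libraries and 573 ± 164 CPM over the neonatal libraries (SD, n = 3 per group, edgeR adjusted p = 0.331, and 0.0582 without neonatal replicate 4). Of 11 other cathepsin and lysosomal protease genes 0 passed edgeR with or without that library. DESeq2 called 1 lower on 6 libraries (background 2.31%). Without neonatal replicate 4 it called 1 lower (background 12.6%) and 1 higher (background 11.5%). Scpep1, a serine carboxypeptidase gene, had 5.98 to 19.5 CPM in adult and 34.0 to 81.4 CPM in neonatal LICs. Its edgeR adjusted p was 0.212 on 6 libraries and 0.0853 without neonatal replicate 4, and its DESeq2 adjusted p was 0.0141 and 0.00628.

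Cystatins and stefins are the protein inhibitors of cysteine cathepsins. Stfa1, a stefin A gene of maturing neutrophils, was at 1275, 1752 and 104 CPM in adult replicates 1, 2 and 4, against 4.78, 10.3 and 31.9 CPM in neonatal replicates 4, 7 and 8 (log2 fold change 6.02 with an edgeR adjusted p of 0.140, and 5.62 with 0.0620 without neonatal replicate 4). BC100530 and Stfa2l1, of the same family, followed that order of adult libraries, at 51.5 to 1259 CPM and 3.35 to 96.7 CPM, against 0.598 to 6.83 CPM and 0.282 to 0.581 CPM in neonatal LICs. Stefin A genes are close copies, so reads may be shared between them. Of 7 cystatin genes tested on 6 libraries 0 passed edgeR (median log2 fold change 6.02). At an unadjusted p under 0.05, 4 of these were higher in adult LICs (background 7.01%). Of 9 tested without neonatal replicate 4, 0 passed edgeR (median 5.62). DESeq2 called 4 higher in adult LICs on 6 libraries (background 3.13%) and 5 without neonatal replicate 4 (background 11.5%). With limma and quality weights 2 were higher, where 519 of all 13272 genes were. In edgeR without adult replicate 4, 1 was higher, where 3 of all 13700 genes were.

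**Figure D5:**
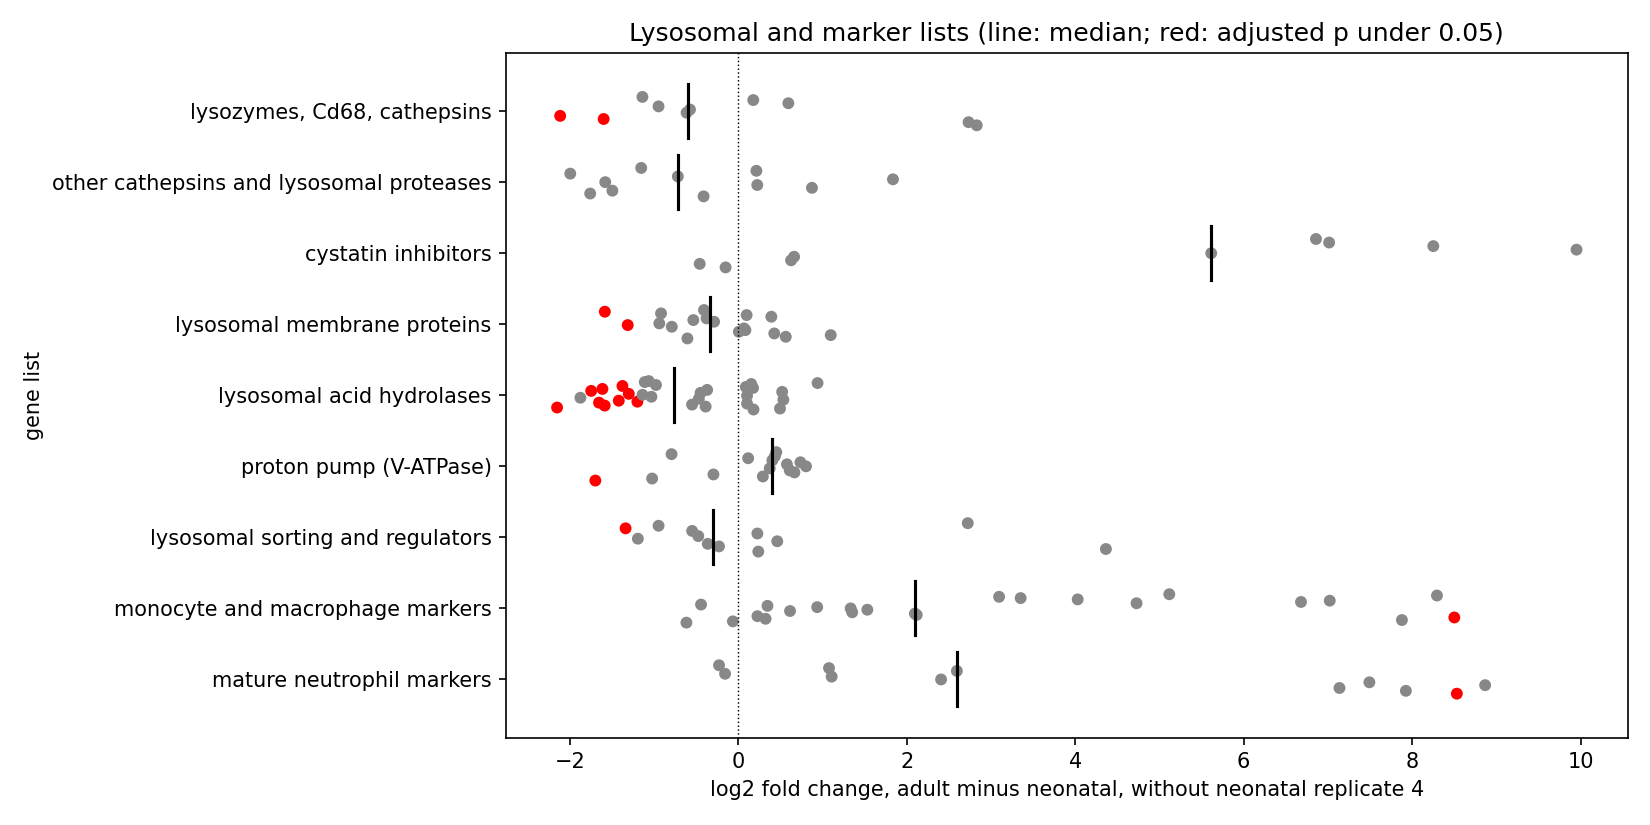
Log2 fold change, adult minus neonatal, of every tested gene in each list without neonatal replicate 4 (adult replicates 1, 2 and 4 against neonatal replicates 7 and 8), with the list median as a line and genes past an edgeR adjusted p of 0.05 in red. The acid hydrolase list holds 9 red points to the left of 0, and cystatin inhibitors and neutrophil markers reach far to the right.

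Markers of cell types that a sort could hold were read beside these genes. Mature neutrophil markers summed to 6052, 15027 and 1855 CPM in adult replicates 1, 2 and 4, against 319, 231 and 180.5 CPM in neonatal replicates 4, 7 and 8, and 11 of 11 had a positive log2 fold change on 6 libraries and 9 of 11 without neonatal replicate 4. Within the adult group the lysozymes, like these markers, were lowest in adult replicate 4, and the neonatal libraries stood in the same order for both. Adult replicate 2 had a higher marker sum than adult replicate 1 but less Lyz2 (964 against 1106 CPM). Adult replicate 4 had a higher marker sum than neonatal replicate 4 but less Lyz2 (269.7 against 468 CPM). The part of these markers in the lysozyme values was not tested. Ngp, a neutrophil granule gene, was at 589 to 3896 CPM in adult and 2.40 to 27.7 CPM in neonatal LICs, and S100a8, a calprotectin subunit gene, at 447 to 2779.9 CPM in adult and 0.652 to 49.3 CPM in neonatal LICs. Monocyte and macrophage markers summed to 2441, 2542 and 3011 CPM in adult replicates 1, 2 and 4, against 5033, 1770 and 1927 CPM in neonatal replicates 4, 7 and 8. Neonatal replicate 4 was the highest library, and the adult libraries lay above the other neonatal ones. Of these markers 17 of 21 had a positive log2 fold change on 6 libraries (median 1.85, from -0.35 to 8.26) and 20 of 23 without neonatal replicate 4. That of Cd68 was negative in both fits. Beside these and the neutrophil sign counts, 6166 of all 13272 genes were positive on 6 libraries. Without neonatal replicate 4, 7209 of all 13856 genes were. On 6 libraries 10 of the 21 were higher in adult LICs without overlap (background 12.0%) and 0 were lower (background 7.67%). A count of 0 was taken as 0 CPM there. The 10 include C1qa and Fcgr1, whose lowest adult values, 0.819 and 0.499 CPM, lie below the 0.897 CPM that a count of 0 allows in neonatal replicate 4. At an unadjusted p under 0.05 in edgeR, 8 were higher (background 7.01%) and 0 lower (background 4.93%). Csf1r, Adgre1, Cd14 and C1qa were fixed markers, named whatever their values, so they need not stand for the list. Csf1r, the macrophage growth factor receptor gene, showed overlapping levels, at 21.1 to 54.2 CPM in adult and 15.5 to 78.1 CPM in neonatal LICs, as did Adgre1 (F4/80, listed as Emr1) at 62.7 to 122 CPM in adult and 36.5 to 113 CPM in neonatal LICs. Cd14 also overlapped, at 5.88 to 24.8 CPM in adult and 9.56 to 14.8 CPM in neonatal LICs. The complement gene C1qa of tissue macrophages ranged over 0.819 to 3.39 CPM in adult LICs, against 0, 0 and 0.222 CPM in neonatal replicates 4, 7 and 8. A count of 0 allows up to 0.897 CPM in neonatal replicate 4 and 0.0425 CPM in replicate 7 (3 counts). Timd4 had 0 counts in every library, and Fcgr1 had 0.499 to 0.972 CPM in adult libraries and 0 counts in neonatal ones. The part of macrophage content in the Cd68 values was not tested. In the 5 deep libraries Fcgr1, the high-affinity IgG receptor gene, rose in adult LICs (1 of 23 tested, edgeR adjusted p = 0.0498), as did S100a8 among the neutrophil markers (1 of 11, edgeR adjusted p = 0.0437), against a background of 2.25%. DESeq2 called 5 monocyte and macrophage and 5 neutrophil markers higher on 6 libraries (background 3.13%), and 9 and 7 without neonatal replicate 4 (background 11.5%). In edgeR without neonatal replicate 4, 2 of 6 stem and progenitor markers fell in adult LICs (Kit and Flt3, background 3.72%) and 0 rose (background 2.25%). On 6 libraries the groups overlapped for Kit, whose lowest neonatal value, given above, lay below every adult library. Dendritic, B and T cell, and erythroid and megakaryocyte markers gave 0 in either direction in edgeR without neonatal replicate 4. DESeq2 without that library called 3 stem and progenitor markers lower and 1 higher, and 1 erythroid and megakaryocyte marker lower. The DESeq2 backgrounds there were 12.6% lower and 11.5% higher.

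RefSeq promoter windows (GRCm38.p6, 250 bases before to 50 after a start site) were found for 8 of the 10 genes, in 9 windows, and not for Ctsb and Ctsh. The E-box CACGTG, the core of the element that TFEB binds, reads the same on both strands. It was in the windows of Ctsa, Ctsd and Ctsl, and in 7.15% of all 32851 windows. The longer form TCACGTG, searched on both strands and overlapping the first, was in those of Ctsa and Ctsd, and in 3.77% of all windows. The PU.1 core GAGGAAG was in that of Ctss, and in 13.6% of all windows. The 100 bases before the start sites of Ctsa (the downstream of its 2 annotated starts, plus strand, chr2:164833673-164833772) and Ctsd (minus strand, chr7:142387828-142387927) are shown because both carry the longer form, in capitals with its reverse.
Ctsa: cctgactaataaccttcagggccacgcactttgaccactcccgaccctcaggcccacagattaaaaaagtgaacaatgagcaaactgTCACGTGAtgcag
Ctsd: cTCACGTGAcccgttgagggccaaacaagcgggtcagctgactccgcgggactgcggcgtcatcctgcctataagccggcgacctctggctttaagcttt
In Ctsa the E-box shown spans bases -12 to -7 from that start, and in Ctsd bases -98 to -93. Each window holds another outside the bases shown, at 6 to 11 in Ctsa and at -245 to -240 in Ctsd. These are matches of letters in a window and no measure of binding.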

How the data were processed

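Poly(A) RNA was sequenced as 75-base single-end reads on an Illumina HiSeq from a kit that does not mark strand, per the labels' protocols. The authors deposited 1 table of read counts per gene, made with featureCounts 1.5.1 on mm10 with primary alignments and no strand option, per the file headers. Trimmomatic, Bowtie, TopHat and DESeq2 are named without versions in the submitters' processing notes. From these counts, genes were filtered with edgeR's filterByExpr (minimum count 10), scaled by TMM and tested with the robust quasi-likelihood test of edgeR 4.0.16 in R 4.3.3 (adult minus neonatal, Benjamini-Hochberg over all genes, threshold 0.05). DESeq2 1.42.0 and limma 3.58.1 were alternatives. The code was tested on simulated data. SEs were derived from the F statistic. Depth in neonatal replicate 4 limits a count of 0 to 0.897 CPM. Sequences came from GENCODE and RefSeq.

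The members and gene lists were chosen with earlier results of these data known. Named genes were all 10 members, up to 3 genes per list with the smallest p on 6 libraries, up to 3 more past the threshold without neonatal replicate 4, the 3 genes nearest to Lyz2 and to Cd68 (mean of at least 10 CPM, prior count 2), and 6 fixed markers. Genes that overlap a member, Ddx3y, Timd4 and the lymphoid genes at 0 counts were added for their bearing on a value.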

Additional observations from a re-analysis of the deposited data

How the results depend on the processing

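Of 16 alternative settings and 3 chosen after seeing the data (DESeq2 without neonatal replicate 4, and Lyz1 and Lyz2 summed with and without that library), all kept the direction of the log2 fold change of Lyz1, Lyz2, Cd68, Ctsa, Ctsb, Ctsd, Ctsh, Ctsl and Ctsz, where they gave one. Ctss reversed, at -0.30 on 6 libraries against 0.039 with limma voom, 0.26 with library quality weights, 0.06 without adult replicate 4, 0.18 without neonatal replicate 4 (also with the lysozymes summed) and 0.17 with DESeq2 without that library, and ranged from -0.92 to 0.18 when 1 library was left out. The cause was not tested. Members lower in adult LICs numbered 0 in edgeR on 6 libraries, 2 with DESeq2, 3 with quality weights and 4 with DESeq2 without neonatal replicate 4, and 0 to 2 when 1 library was left out. Members higher numbered 0, then 1 with quality weights (Lyz1) and 2 with DESeq2 without neonatal replicate 4 (both lysozymes), and 0 to 0 when 1 library was left out. Over all genes edgeR called 5 higher and 2 lower, DESeq2 444 and 328, quality weights 519 and 537, and DESeq2 without neonatal replicate 4 1645 and 1798. RLE and upper-quartile scaling each gave 1 lower, and thinning all libraries to 3932833 counts gave 9 higher. Leaving out 1 library gave 1 to 312 higher and 0 to 516 lower, the highest of each without neonatal replicate 4. No paired analysis was possible because the adult and neonatal groups share only replicate number 4.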
